A study of Mus musculus with 3 samples.

Results

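Yap1 occupancy was described at 8 genes of FoxO signalling and oxidant defence, namely Foxo1, Foxo3, Cat, Sod1, Sod2, Nfe2l2, Hmox1 and Txnrd1. They were chosen by name, with earlier results of these data known. Each row of the authors' region table that lists a member's exact symbol was taken. All 8 genes had a region, and 21 of the 22020 regions of the table belonged to them. A region was listed for 53.3% of all 21900 protein-coding genes of RefSeq, which were not chosen in this way, so the 2 shares are a description only. Foxo3 had 7 regions, Nfe2l2 5, Hmox1 3 and Cat 2, while Foxo1, Sod1, Sod2 and Txnrd1 had 1 each.

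Yap1 is a co-activator of the Hippo pathway that binds DNA through partner proteins, chiefly the TEAD factors. FoxO factors are forkhead transcription factors that insulin and Akt signalling keep out of the nucleus. In cardiomyocytes Yap1 has been described in a complex with FoxO1 at the promoters of the antioxidant genes Cat and Sod2. Nrf2, the product of Nfe2l2, binds antioxidant response elements and drives enzymes such as heme oxygenase 1 and thioredoxin reductase 1. The heart depends on these enzymes because its mitochondria release superoxide while they work.

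The samples were hearts of wild-type male C57BL/6J mice taken 7 days after a sham operation or after transverse aortic constriction (TAC), which narrows the aorta and loads the left ventricle with pressure. There was 1 anti-Yap1 ChIP-seq library for sham and 1 for TAC, and the design names 3 mice per operation without saying whether a library pooled them. The input library, DNA from a pool of both operations, was not analysed here. With 1 library per operation no difference below could be tested against variation between mice, so higher and lower describe these libraries only. Whole heart tissue was used, in which fewer cells of a type and less binding per cell cannot be told apart.

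Signal is printed in the authors' units, as the average over a region and the maximum within it. Ratios are log2((TAC + 1)/(sham + 1)) of the average signal. Over all 22020 regions the median ratio was -0.54, and the sources used here do not give the read depth or the authors' scaling between the libraries. Every cardiomyocyte marker looked up (7 of 7) had a region, with a median ratio of -0.79, as did 5 of 5 endothelial markers at -0.37. Regions were listed for 3 of 5 fibroblast (median -0.26), 1 of 5 leukocyte (-0.61), 2 of 5 hepatocyte (-0.93) and 2 of 5 neuronal markers (-0.52). Many of these regions are also listed for other genes, among them those of 4 cardiomyocyte markers and of both hepatocyte markers. The leukocyte value is that of Cd68, at a region listed for 8 genes. Both hepatocyte regions were called in sham only.

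The promoters of 7 of the 8 genes are in the RefSeq promoter table of the GRCm38.p6 assembly, as 9 windows of 300 bases from 250 bases before to 50 after an annotated start. The exception is Hmox1. Of these windows 8 lay wholly inside a Yap1 region of their gene, where 30.9% of all 32817 windows overlapped a Yap1 region. The remaining window belongs to the farthest upstream of the 3 annotated starts of Txnrd1. Both strands were searched for the letters GTAAACA (a FoxO motif), TGACNNNGC (the core of the antioxidant response element), GGAATG (a TEAD motif) and TGANTCA (an AP-1 motif, which can overlap the antioxidant core). The 4 stretches below are the 250 bases upstream of the start at the members with a match, each read 5′ to 3′ along the gene, with matches in capitals. Their positions in GRCm38.p6 are chr10:42276696-42276945 (minus strand) for Foxo3, chr2:75704664-75704913 (minus strand) for Nfe2l2, chr16:90220512-90220761 (plus strand) for Sod1 and chr10:82858956-82859205 (plus strand) for the middle start of Txnrd1.
Foxo3: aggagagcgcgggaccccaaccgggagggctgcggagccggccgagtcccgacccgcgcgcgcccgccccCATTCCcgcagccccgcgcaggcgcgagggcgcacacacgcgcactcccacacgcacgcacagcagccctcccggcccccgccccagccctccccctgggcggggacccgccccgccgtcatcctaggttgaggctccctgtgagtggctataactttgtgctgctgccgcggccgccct
Nfe2l2: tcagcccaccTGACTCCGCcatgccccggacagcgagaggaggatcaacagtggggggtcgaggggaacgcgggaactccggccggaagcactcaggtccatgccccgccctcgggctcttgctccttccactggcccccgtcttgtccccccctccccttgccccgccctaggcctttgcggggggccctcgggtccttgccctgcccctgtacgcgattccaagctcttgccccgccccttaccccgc
Sod1: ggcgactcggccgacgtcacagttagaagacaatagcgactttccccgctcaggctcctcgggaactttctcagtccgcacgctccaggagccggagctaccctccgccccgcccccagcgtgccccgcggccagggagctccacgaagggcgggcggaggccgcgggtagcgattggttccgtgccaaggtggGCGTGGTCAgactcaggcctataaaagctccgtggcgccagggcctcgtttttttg
Txnrd1: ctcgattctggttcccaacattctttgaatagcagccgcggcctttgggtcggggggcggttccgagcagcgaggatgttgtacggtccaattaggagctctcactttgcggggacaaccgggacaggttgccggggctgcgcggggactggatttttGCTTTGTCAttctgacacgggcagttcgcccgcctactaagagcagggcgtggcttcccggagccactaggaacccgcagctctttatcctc

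The Foxo3 window held 2 matches to the TEAD letters. The upstream match began 180 bases before the start, on the opposite strand, and the other began 21 bases into the transcribed part:
Foxo3: gggaggaggaGGAATGtggaaggcgg
TEAD letters occurred in 12.6% of the 10155 windows in a Yap1 region (95% Wilson interval 11.9 to 13.2%) and in 15.6% of the windows outside (15.1 to 16.1%). Nfe2l2, Sod1 and Txnrd1 each held 1 match to the antioxidant core, 240, 56 and 92 bases before their starts. The core occurred in 14.5% of windows in a Yap1 region and in 11.4% of windows outside. Windows in a Yap1 region had a median of 61.3% G and C and 21 CpG, beside 52.7% and 7 over all windows. The part of this base composition in the motif shares was not tested. Neither the FoxO nor the AP-1 letters were found in any of the 9 windows. They occurred in 2.62% and 4.91% of windows in a Yap1 region, and in 3.65% and 7.81% of all windows. No match of a member overlapped another. A match describes letters in the reference sequence, not binding.

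Foxo3 had the highest average Yap1 signal in sham among the 8 genes, while Txnrd1 (82) and Nfe2l2 (77) had higher maxima. Its start region, on chromosome 10 from 42273294 to 42279324 (mm10), averaged 26.4 in sham and 13.4 in TAC. Both libraries had a peak call there, and the region ranked 64 of all regions in sham and 537 in TAC. The signal was 1.91-fold lower in TAC (log2 ratio -0.93), the largest difference of the 21 regions, and the maxima were 73 and 43. Among the 500 regions nearest to it in mean signal, 3% had a lower ratio, and their median was -0.60.

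The other 6 Foxo3 regions lay inside the gene, from 6070 to 71404 bp past the start, and were weaker. Their averages ran from 8.75 to 13.8 in sham and from 5.44 to 9.52 in TAC. The strongest of them in sham, centred 27660 bp past the start, was also the longest of the 21 regions, with 9026 bp and a signal of 13.8 in sham and 8.17 in TAC. Farthest in, the region at 71404 bp had 13.0 and 9.52 and was the strongest of the 6 in TAC. These 2 and the start region were called in both libraries, and the remaining 4 in sham only.

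Ratios along Foxo3 were not uniform. The start region had -0.93, the 6 others had a median of -0.58, and the highest ratio was -0.41, at 71404 bp. Over the 4932 genes with a start region and at least 1 further region, the start had the lower ratio in 49.2%, and the median difference was 0.0061. At Foxo3 the difference was -0.35. Together the 7 regions covered 30.0% of the 94.9 kb gene, and 7.02% of the 798 listed protein-coding genes within 20% of its length had as many regions.

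Foxo1, which encodes the FoxO factor described with Yap1, had a much plainer profile. Its 1 region, on chromosome 3 from 52266203 to 52270894, spans the start and had an average signal of 12.2 in sham and 8.11 in TAC, with maxima of 29 and 24. The log2 ratio was -0.53, which lay 0.0055 above the median of all regions. Foxo1 is of like length to Foxo3, 81.8 kb, but only 3.13% of it lay in a region. Among the 839 listed protein-coding genes of like length to Foxo1, 42.8% also had a single region. The locus maps show the contrast between the FoxO genes.

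**Figure D1:**
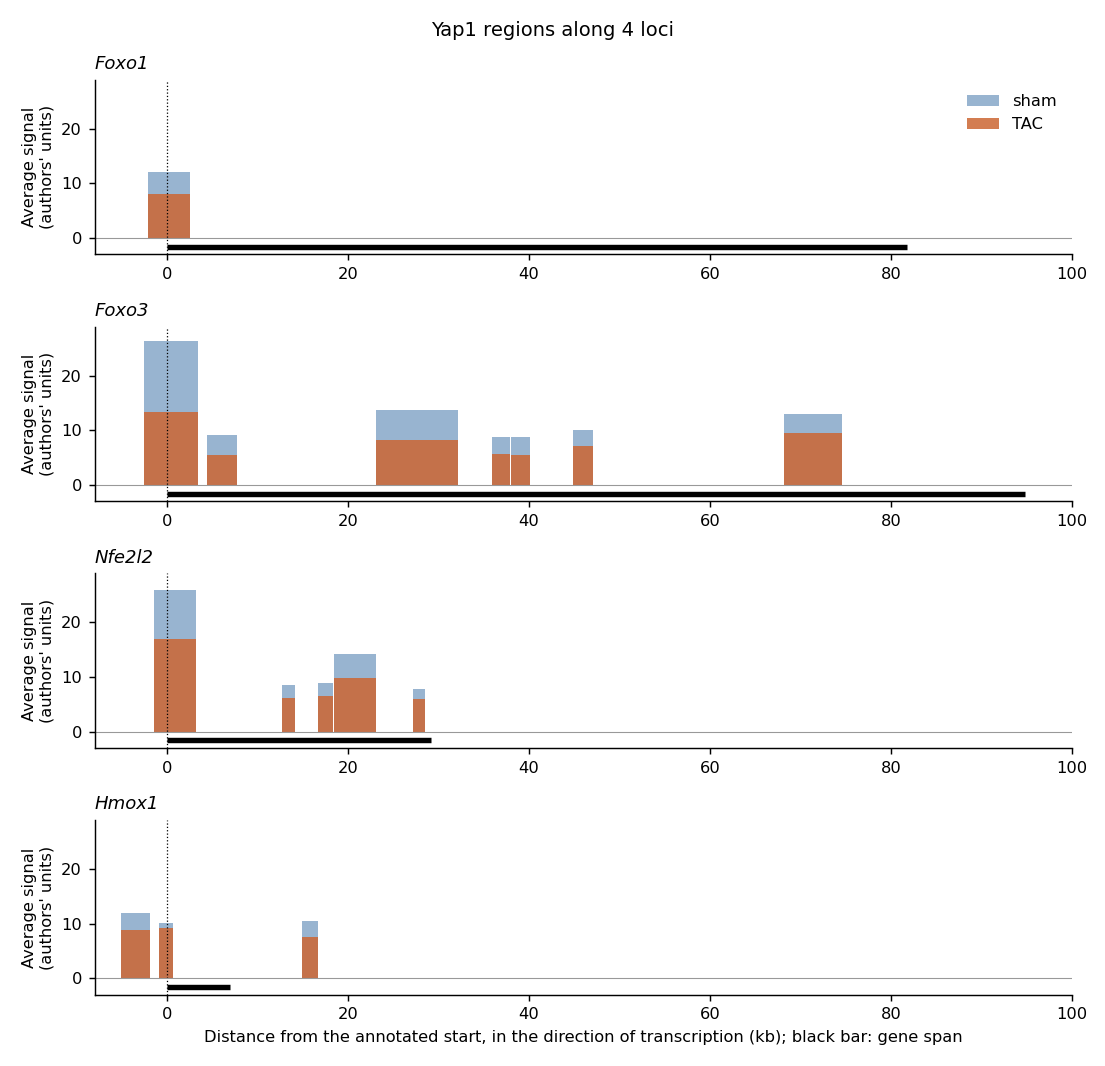
Average Yap1 signal (vertical axis, authors' units) of each region in sham (blue) and TAC (orange, drawn in front from 0) against the distance from the table's start in kb, for Foxo1, Foxo3, Nfe2l2 and Hmox1. Black bars are the gene spans, and the start regions of Foxo3 and Nfe2l2 stand above their other regions in both libraries, with 26.4 and 25.9 in sham.

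Sod2 had the highest average Yap1 signal in both libraries, and the lowest maximum at the start, among Cat, Sod1 and Sod2, the genes of enzymes that remove superoxide and hydrogen peroxide. Sod2 encodes the mitochondrial manganese superoxide dismutase. Its only region, on chromosome 17 from 13007050 to 13009315, spans the start and had 21.3 in sham and 13.2 in TAC, ranks 298 and 591 of all regions. The log2 ratio was -0.65, or 1.57-fold lower in TAC, and the maxima were 58 and 36.

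Catalase, which breaks down hydrogen peroxide, is encoded by Cat, and its signal differed less between the libraries. The start region of Cat, on chromosome 2 from 103482779 to 103485903, averaged 15.4 in sham against 11.8 in TAC (log2 ratio -0.35). It moved up the ranking, from 2617 in sham to 1315 in TAC. A second region, centred 4571 bp into the gene, had 10.3 and 7.54 (-0.40) and was called in sham only. By maximum signal Cat did not keep this smaller difference: the start region had 59 and 40 (-0.55) and the inner region 25 and 14 (-0.79).

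Sod1, the gene of the cytosolic copper and zinc superoxide dismutase, had the lowest average but the highest maximum of the 3 start regions in both libraries. Its region on chromosome 16, from 90219854 to 90223136, had 15.0 in sham and 10.5 in TAC, with maxima of 61 and 47. The log2 ratio of the average, -0.48, lay between those of Sod2 and Cat, and that of the maximum was -0.37, above both. This region covers 42.6% of the short gene and is also listed for the neighbour Scaf4, so its signal is not assigned to Sod1 alone.

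Nfe2l2 had the strongest Yap1 signal of the 8 genes in TAC, by average and by maximum. Its start region, on chromosome 2 from 75701406 to 75706126, had 25.9 in sham and 16.9 in TAC and ranked 75 and 54. The log2 ratio was -0.59, with maxima of 77 and 49. The same region is listed for a neighbouring transcript, E030042O20Rik. Its average was close to that of Foxo3 in sham, 25.9 against 26.4, but higher in TAC, 16.9 against 13.4.

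Inside Nfe2l2, 4 weaker regions followed from 13415 to 27811 bp past the start. Their averages ran from 7.76 to 14.2 in sham and from 6.00 to 9.84 in TAC, with log2 ratios from -0.49 to -0.32. The strongest, at 20782 bp, had 14.2 and 9.84 and was the only one of the 4 called in both libraries. The region at 27811 bp is also listed for Hnrnpa3 and had the lowest sham signal of the 21, 7.76, beside 6.00 in TAC. In all, 42.0% of the 29.2 kb gene lay in regions, and 3.23% of the 1393 listed protein-coding genes of like length had as many.

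Hmox1, the stress-inducible heme oxygenase gene, had the weakest start region in sham and the smallest difference between the libraries. Its start region, on chromosome 8 from 75092778 to 75094331, had 10.2 in sham and 9.19 in TAC and ranked 12370 and 5524. The log2 ratio of -0.13 was the highest of the 21 regions, and the maxima were nearly equal at 26 and 25. Of the 500 regions nearest in mean signal, 87.2% had a lower ratio, so values like this one were not rare.

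The upstream region of Hmox1, centred 3481 bp before the start, lies on the side where distal enhancers with antioxidant response elements are known in the mouse. Its average was 12.0 in sham against 8.86 in TAC (log2 ratio -0.39). Its maximum was higher in TAC, 29 against 26, which held for none of the other 20 regions and for 8.06% of all regions. By average signal the start region was below the upstream region in sham and above it in TAC, but by maximum they were level in sham (26 each) and the start was lower in TAC (25 against 29). The order change in averages was one that 10.5% of the 4932 genes with a start region and a further region also had. The remaining region, 15842 bp past the start, had 10.6 and 7.63, was called in sham only, and lies at the start of the neighbour Mcm5, for which it is also listed.

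Txnrd1, the gene of cytosolic thioredoxin reductase, had 1 strong region well inside the gene. This region on chromosome 10, from 82857572 to 82861283, averaged 20.9 in sham and 12.1 in TAC, ranks 350 and 1127, with calls in both. Its sham maximum of 82 was the highest of the 21 regions, and the TAC maximum was 45. The log2 ratio was -0.74 (1.67-fold lower), the second lowest after the Foxo3 start. The authors' distance places it 25476 bp past the start, but the distance is counted from the farthest upstream of the annotated starts. The other RefSeq starts of Txnrd1, at 82859206 and 82860341, both lie inside the region, the nearer 221 bp from its midpoint. The printed Txnrd1 sequence runs up to the first of these. The region is also listed for Eid3.

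**Figure D2:**
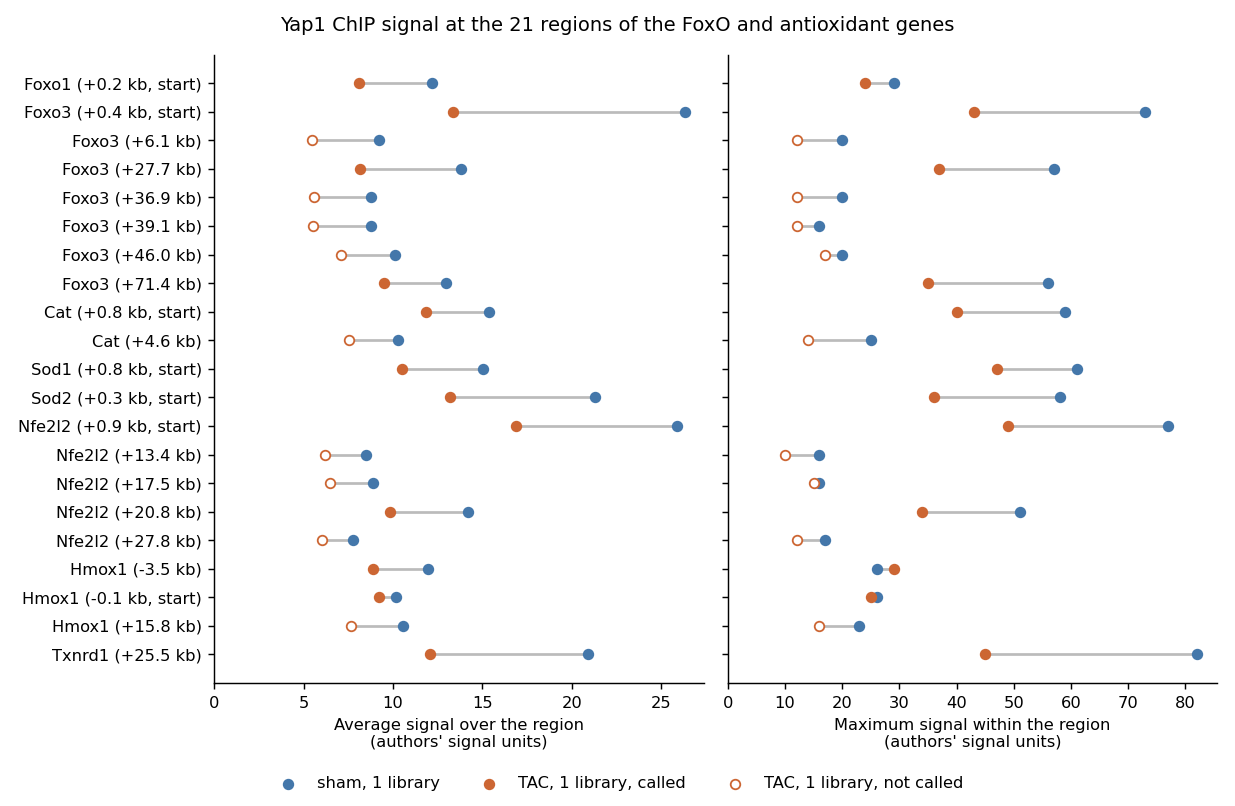
Average signal (left) and maximum signal (right) of each of the 21 regions in the sham library (blue) and the TAC library (orange, open where no peak was called in TAC), labelled by gene and by the distance of the midpoint from the start in kb. Every average was lower in TAC, and the Hmox1 region at -3481 bp was the only one with a higher maximum in TAC (29 against 26).

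Taking the 21 regions as a group, the average signal was lower in TAC at all 21, where 94.6% of all regions were lower. Of the 21, 13 lay above the median ratio of all regions, so the direction by region turns when that median is subtracted. By gene it did not turn: at their strongest regions the 8 genes had a median of -0.56, beside -0.50 over all genes. Of the 8 genes, 5 lay below that median, and 4 were at least 1.5-fold lower, beside 36.3% of all genes. The 7 start regions had -0.53, beside -0.48 over all regions spanning a start. By maximum signal the 21 regions had -0.57, beside -0.55 over all regions. The group had a median of 12.0 in sham and 8.17 in TAC, beside 10.6 and 7.46 over all regions. The median log2 ratio was -0.48, from -0.93 to -0.13, beside -0.54. At least 1.5-fold lower signal in TAC was seen at 7 regions (33.3%), beside 43% of all regions. No region was at least 1.5-fold higher in TAC, beside 0.486% of all regions. These 7 were the start regions of Foxo3, Sod2 and Nfe2l2, the Txnrd1 region and 3 inner regions of Foxo3. Relative to the median of all regions, none of the 21 differed by 1.5-fold in either direction, where 2.31% of all regions were lower and 4.42% higher by that much. Within the regions called in both libraries 5 of 12 (41.7%) were at least 1.5-fold lower, beside 32% of all such regions. Their median ratio was -0.51, beside -0.46, and all 12 were lower in TAC. The other 9 of the 21 were listed only through their sham call, so a lower value in TAC was partly set in advance there. Those 9 had a median of -0.42, beside -0.62 for all regions called in sham only.

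Calls in both libraries were more frequent at start regions than elsewhere, among the members as over the whole table. The sham library had a call at all 21 regions (96.6% of all regions) and the TAC library at 12 (48.7%). All 7 regions that span their member gene's start were called in both libraries, as were 5 of the 14 others, the Txnrd1 region among them. Over the whole table, 64.7% of regions that span the start of any listed gene and 34.9% of the rest were. These sets are not quite alike, because the Hmox1 region at the start of Mcm5, called in sham only, counts among the 14. So does the Txnrd1 region, called in both libraries, although it holds the other RefSeq starts of Txnrd1. Calls in sham only were seen at 9 of the 21 regions (42.9%, beside 51.3% of all regions), and calls in TAC only at 0 (beside 3.4%). The 9 regions called in sham only had sham maxima from 16 to 25 and TAC maxima from 10 to 17. The 12 called in both had 26 to 82 and 24 to 49. A call can depend on the height of the signal, by a rule that is not given, so this order of the sets by maximum is a description only. Ratios of the sets overlapped, at -0.66 to -0.32 and -0.93 to -0.13. A promoter was counted to 10 of the 21 (47.6%, beside 44.4% of all regions) and a CpG island to 9 (42.9%, beside 36%). Neighbouring genes shared 5 of the 21 regions (23.8%, beside 28.1%).

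**Figure D3:**
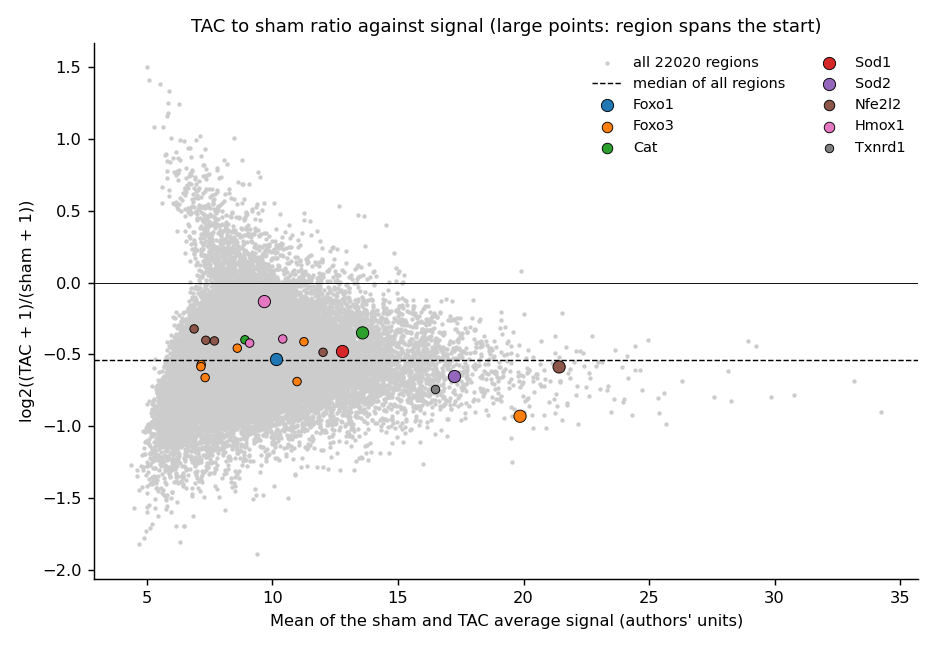
log2 ratio of TAC to sham average signal (vertical axis) against the mean of both libraries (horizontal axis, authors' units) for all 22020 regions in grey and the 21 regions in colour, with large points where a region spans the start. The 21 regions lie within the grey cloud, between -0.93 (Foxo3 start) and -0.13 (Hmox1 start), on either side of the median of -0.54 (dashed line).

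Most genes of the wider pathways also had a region. Of 97 genes in 5 lists of FoxO regulation, FoxO targets, the Nrf2 pathway, antioxidant enzymes and oxidant sources, 85 had a region. Of all protein-coding genes, 53.3% had one. The lists, like the members, were chosen with earlier results of these data known, so these shares are a description only. Each gene was taken at its strongest region. All 13464 genes of the table had a median log2 ratio of -0.50, and 36.3% had a ratio at least 1.5-fold lower in TAC. Regions were often shared with a neighbouring gene, for 42 of the 85 genes.

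FoxO target genes had the lowest median ratio of the 5 lists, at -0.71 over 19 of 20 genes, and 15 of the 19 were at least 1.5-fold lower in TAC. They also had the highest median sham signal of the 5 lists, 17.6 beside 13.1 over all genes. The part of signal strength in the ratios of the lists was not tested. All but Cdkn1a and Sesn3 lay below the median of all genes. Pdk4, the gene of a kinase that restrains pyruvate dehydrogenase, averaged 22.5 in sham against 11.7 in TAC (-0.88), and the growth arrest gene Gadd45a had 20.9 and 10.9 (-0.88). The cell cycle inhibitor gene Cdkn1a was the strongest of the list, with 33.9 and 24.7, and had the highest ratio at -0.44, followed by the sestrin gene Sesn3 at -0.48. Bcl2l11, the gene of the pro-apoptotic protein Bim, was second in strength with 23.3 and 12.4 (-0.86). The regions of Gadd45a and Bcl2l11 are each listed for 2 genes. Cardiomyocyte markers, as given above, had a median of -0.79 and the 2 hepatocyte markers with a region -0.93, and the part of other cell types in these values was not tested. Igfbp1 had no region.

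FoxO regulators had a median ratio of -0.58 over 11 of 12 genes, with 5 at least 1.5-fold lower. Foxo6, a further FoxO gene, averaged 15.3 in sham against 6.37 in TAC (-1.15), at a region inside the gene that was called in sham only. Ywhaz, which encodes a 14-3-3 protein that binds phosphorylated FoxO factors, was strongest after Foxo3, with 19.7 and 12.5 (-0.61). The deacetylase gene Sirt1 had the highest ratio, with 8.28 and 6.79 (-0.25), and the acetyltransferase gene Crebbp was at -0.39. The Crebbp region is listed downstream, 134664 bp from the start, and for 2 genes. Foxo4 had no region.

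The Nrf2 list had a median of -0.59 over 25 of 26 genes, with 14 at least 1.5-fold lower. Mafk, which encodes a small Maf partner of Nrf2, was the strongest, with 30.3 in sham and 16.8 in TAC (-0.81), at a region listed for 2 genes. Gclc, the catalytic subunit gene of glutathione synthesis, had 14.6 and 7.26 (-0.92) in an upstream region called in sham only, and the exporter gene Abcc1 15.3 and 8.09 (-0.84). Cul3, a ubiquitin ligase scaffold that acts with Keap1, had 8.27 and 8.03 (-0.04), and the small Maf gene Mafg 11.1 and 10.5 (-0.07). By maximum signal Cul3 was at -0.51 and Mafg at 0.21. The Mafg region is listed for 3 genes. Slc7a11 had no region.

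Antioxidant enzyme genes had a median of -0.49 over 27 of 32 genes, almost equal to that of all genes, and 10 were at least 1.5-fold lower. By maximum signal the median of this list was -0.67. Over all regions, rather than the strongest region of each gene, the median by maximum was -0.55. The peroxiredoxin gene Prdx2 was the strongest, with 27.8 in sham against 16.5 in TAC (-0.72), at a region listed for 5 genes and 8744 bp downstream of its start. Nnt, which encodes the mitochondrial transhydrogenase and carries a deletion in C57BL/6J mice, had 18.7 and 9.17 (-0.96), at a region listed for 2 genes. The secreted glutathione peroxidase gene Gpx3 had 10.7 and 5.19 (-0.92), in a downstream region listed for 2 genes and called in sham only. Msrb2, a methionine sulfoxide reductase gene, had 8.31 and 8.42 (0.017), and Gpx7 11.2 and 10.3 (-0.10). By maximum signal Msrb2 was at -0.07 and Gpx7 at -0.18. Sod3, Prdx4, Glrx, Glrx2 and Glrx5 had no region.

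Oxidant source genes had a region at 5 of 9, the smallest share of the 5 lists but near the 53.3% of all protein-coding genes. Their median ratio was -0.34, and their median sham signal, 9.88, was the lowest of the 5 lists. Cyba, which encodes a subunit of the NADPH oxidases, averaged 14.3 in sham against 7.87 in TAC (-0.79), at an upstream region listed for 5 genes. The small GTPase gene Rac1 had 11.4 and 7.74 (-0.50), and Duox1 (-0.29) and the xanthine dehydrogenase gene Xdh (-0.20) had the highest ratios. The Duox1 region is listed downstream, 33165 bp from the start, and for 2 genes. The catalytic NADPH oxidase genes Nox4 and Cybb had no region, nor had Ncf1 and Maob.

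**Figure D4:**
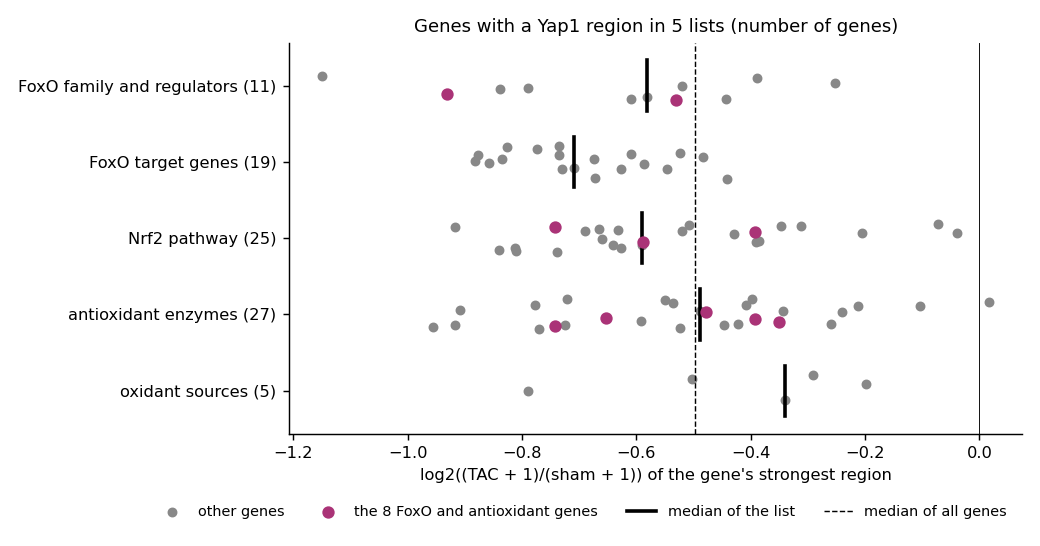
log2 ratio of TAC to sham average signal at the strongest region of each gene (horizontal axis) for 5 lists (rows, number of genes with a region in brackets), with the 8 FoxO and antioxidant genes in purple and short bars at the list medians. The FoxO target list has the lowest median (-0.71) and the oxidant source list the highest (-0.34), and the dashed line marks the median of all genes (-0.50).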

How the data were processed

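Anti-Yap1 ChIP-seq was made from mouse hearts after sham operation or TAC, with 1 library each. BWA and MACS 1.4.2 on the mm10 build are named in the submitters' processing notes. The authors deposited 1 table of merged regions with the average signal and the maximum signal of each library, a call per library, listed genes, and counts of promoters and CpG islands, per the file headers. The sources used here do not give the call threshold, the scaling of the signal or the depth. Every region has a call in at least 1 library, and a weak region is in the table only through such a call.

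Columns were matched to libraries by the operation in their names. The log2 ratio used a pseudocount of 1 and a fixed size of 1.5-fold, with no test, since there is 1 library per operation. A region spans a start when the authors' distance from its midpoint is at most its length divided by 2. Coordinates are the authors', on mm10. RefSeq sequences and gene lengths are of GRCm38.p6, whose starts lay within 47 bp of the authors' for the 8 genes. Wider-list genes were matched by current symbol or synonym. The genes named in each list were the 2 highest and 2 lowest ratios and the 2 strongest, besides those without a region. The members and lists were chosen with earlier results of these data known. The 500 regions nearest in signal were added after the values were seen. Ratios, quantile normalization and the motif search were tested on simulated data. Python 3.11.15, pandas 2.3.3, numpy 2.4.6 and scipy 1.17.1 were used.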

Additional observations from a re-analysis of the deposited data

How the results depend on the processing

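The scaling between the libraries set the direction of the group by average signal over regions. By gene the median of the members stayed below that of all genes (-0.56 beside -0.50). By maximum signal the median of the 21 regions was below that of all regions (-0.57 beside -0.55). After subtracting the median of all regions the median log2 ratio over the 21 regions was 0.058, and after quantile normalization 0.011, with 0 regions at least 1.5-fold lower in either case. The subtraction left 8 of the 21 ratios below 0. By the same subtraction over genes, the median of the antioxidant enzymes became 0.0091 and that of the oxidant sources 0.16. By maximum signal the list medians were -0.71 for FoxO targets, -0.67 for antioxidant enzymes and -0.61 for FoxO regulators. They were -0.56 for the Nrf2 list and -0.51 for oxidant sources, so the order of the lists between the lowest and the highest changed. The start region of Nfe2l2 was at 0.055 after quantile normalization and at 0.024 relative to the 500 regions nearest in signal. The count of 7 regions at least 1.5-fold lower became 2 with a pseudocount of 5 and 0 at a 2-fold size, 8 with a pseudocount of 0.1, and 10 by maximum signal (47.6%, equal to the share of all regions). With promoter regions only it was 4 of 10 (40%, beside 35.1% of all such regions), without weak regions 5 of 13 (38.5%, beside 38.3%), with regions called in both libraries 5 of 12 (41.7%, beside 32%), and with regions listed for 1 gene 5 of 16 (31.2%, beside 45.5%). Genes of the wider lists with a region numbered 50 when only regions listed for 1 gene counted. All 8 members kept a region called in both libraries, 6 kept one listed for them alone, and 7 one within 5000 bp of the start. No paired analysis was possible because each operation has 1 library, and no library could be left out. Depth is unknown, so no counting error could be given.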
